A study of Mus musculus with 6 samples.

Results

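The 10 cytotoxic effector genes examined here were the granzymes Gzma, Gzmb, Gzmm and Gzmk, the pore-forming protein perforin (Prf1), the granule membrane protein Nkg7, the NK cell receptors Ncr1 (NKp46), Klrb1c (NK1.1) and Klre1, and the cytokine interferon gamma (Ifng). They were picked by name and function from 32287 gene features, with earlier results of these data known. The cells were CD11b+TOM+ cells sorted from inguinal lymph nodes of CD169Tom mice, in which Cre from the Siglec1 (CD169) locus switches on tdTomato, and 1 hashtag antibody per mouse marked their origin in a CITE-seq experiment with 2 droplet captures. Of the 4 mice, 2 were unimmunized and 2 were immunized and taken at day 9. All were on a C57BL/6J background and carried the same Cre and reporter alleles. The study's methods describe a subcutaneous injection of HEL-OVA in Sigma Adjuvant System for recipients of OT-II T cells and SWHEL B cells, and another of chicken gamma globulin in an AS03-like adjuvant. Which of them the sequenced mice received is not said there. The reporter labels the whole lineage of a cell that once used the Siglec1 locus, so the sort does not by itself name a cell type.

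NK cells and cytotoxic T cells kill through granules that fuse with the membrane facing a target: perforin opens the target's membrane, and granzymes, which are serine proteases, enter and cleave proteins inside. NKp46, NK1.1 and the C-type lectin Klre1 are surface receptors that NK cells use to sense targets, and interferon gamma is the cytokine that both lineages release to activate macrophages. NK cells are a small part of the lymphocytes of a resting lymph node.

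After joining the captures, 12139 cells could be given to 1 mouse, 2828 and 537 from the unimmunized mice 1 and 2 and 4052 and 4722 from the immunized mice 1 and 2. Median depth ran from 5877 UMIs per cell (UMI, a unique molecular tag counted once per captured transcript) in unimmunized mouse 1 to 12727.5 in immunized mouse 2. Cells were gated on the number of detected genes of marker lists that held none of the 10 genes. NK-like cells had at least 3 of 12 NK genes and at most 1 of 10 T genes (228 cells), T-like cells at least 3 of the 10 T genes (1116 αβ T-like, 232 γδ T-like), and other myeloid cells at least 3 of 8 myeloid genes (6475 cells). The T list holds the constant gene Trbc1, which was detected in 42.5% of these NK-like cells, whereas Cd3e was detected in 0.439%. A second set of gates, chosen after seeing this, called a cell T-like on at least 2 of the 4 genes Cd3d, Cd3e, Cd3g and Trac, and NK-like on at least 3 NK genes with none of those 4. It held 465 NK-like and 992 αβ T-like cells and is called the CD3/Trac gates here. Trbc1 was detected in 68.0% of its NK-like cells.

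By their defining markers the NK-like cells carried the NK receptor chain Klrd1 in 93.0% of cells. The label of the sort was not visible in them as a transcript: none of 228 NK-like cells had a UMI of the Tomato reporter, which allows up to 1.98 CPM, and other myeloid cells had Tomato at 5.97 CPM (452 UMIs in 6475 cells). The macrophage gene Lyz2 was detected in 98.2% of NK-like cells at 2293 CPM against 23675 in other myeloid cells, and in 98.8% of αβ T-like cells. The part of free or carried-over RNA in these values was not tested. Cells that met a lymphocyte gate together with at least 4 of the 8 myeloid genes (279 cells) were left out as mixed.

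In the GRCm38 annotation the genes lay on 5 chromosomes, and only some were near each other. Gzma occupied chr13:113093825-113100981 on the minus strand, and its paralog Gzmk lay on the same strand with 70.6 kb between the genes. Gzmb lay at chr14:56258838-56262260 (minus strand), Prf1 at chr10:61297833-61304680, Gzmm at chr10:79689020-79695261, Ifng at chr10:118441046-118445892, Nkg7 at chr7:43437073-43438249 and Ncr1 at chr7:4337724-4345164 (all plus strand). Klrb1c (chr6:128778485-128789215, minus strand) and Klre1 (chr6:129577905-129585827, plus strand) sat in the lectin receptor gene cluster. All 10 are protein-coding. Klrb1c and Ifng each overlapped another annotated gene of the same strand and Gzmk overlapped Esm1 on the other strand. Whether these overlaps affected their counts was not tested.

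Runx, T-box, ETS and STAT factors are known regulators of killer lymphocyte genes, and their short core motifs were looked up on both strands in the 250 bases before each RefSeq start of these genes (GRCm38.p6). The Runx core TGTGGT was present before at least 1 start of 8 of the 10 genes (all but Gzmk and Ifng). Counted by window, it was in 9 of the 13 windows of these genes and in 14.0% of all 32851 windows of this length. AGGAAG (ETS) was found for 5 genes (5 of 13 windows, 29.5% of all windows). TCACACC (T-box) was found for 3 genes (3 of 13, 3.33%) and TTCNNNGAA (STAT) for 3 (3 of 13, 7.02%). A T-box and a Runx match, or an ETS and a STAT match, can share bases at their ends, and a match is a run of letters, not a shown binding site. The windows of the granzymes and perforin that carry most of the signal and of the receptor Ncr1 are given here because they hold a match in genes with no common neighbourhood; each is written 5′ to 3′ along the gene, with the Runx core or its reverse complement ACCACA in capitals.
Gzma (chr13:113100982-113101231, minus strand): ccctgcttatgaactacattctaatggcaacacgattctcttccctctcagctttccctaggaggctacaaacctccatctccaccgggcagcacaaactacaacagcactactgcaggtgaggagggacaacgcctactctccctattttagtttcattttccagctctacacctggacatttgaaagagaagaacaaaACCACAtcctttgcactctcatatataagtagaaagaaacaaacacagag
Gzmb (chr14:56262335-56262584, minus strand): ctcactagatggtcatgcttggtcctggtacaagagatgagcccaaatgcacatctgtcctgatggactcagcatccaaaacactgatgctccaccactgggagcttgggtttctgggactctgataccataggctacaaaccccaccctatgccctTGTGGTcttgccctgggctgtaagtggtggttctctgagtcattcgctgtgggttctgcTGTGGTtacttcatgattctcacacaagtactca
Prf1 (chr10:61297586-61297835, plus strand): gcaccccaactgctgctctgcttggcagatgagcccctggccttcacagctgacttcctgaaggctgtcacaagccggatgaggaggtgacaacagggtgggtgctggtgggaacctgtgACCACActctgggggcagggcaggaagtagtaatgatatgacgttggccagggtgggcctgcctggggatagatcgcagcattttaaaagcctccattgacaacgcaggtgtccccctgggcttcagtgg
Ncr1 (chr7:4337474-4337723, plus strand): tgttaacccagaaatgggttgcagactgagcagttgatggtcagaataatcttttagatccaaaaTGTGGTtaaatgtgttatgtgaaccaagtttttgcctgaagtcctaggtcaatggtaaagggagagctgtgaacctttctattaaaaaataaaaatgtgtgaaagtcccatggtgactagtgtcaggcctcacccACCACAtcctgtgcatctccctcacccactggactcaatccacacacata
Gzma and Prf1 held 1 such match each, Gzmb and Ncr1 2 each.

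The genes were highest in the lymphocyte gates. Counts were summed per mouse and gate and are given as CPM, counts scaled to the same library total. Of the granule proteases, Gzma had 20101 UMIs in the matrix of kept cells and Gzmb 1577, while Gzmm had 89 and Gzmk 14 in all. In NK-like cells Gzma stood at 4350 and 4251 CPM in the unimmunized and at 6124 and 3057 in the immunized mice, a mean of 4446 ± 1264 (SD, n = 4 mice). All 4 values lay above the highest αβ T-like value, 1087 in immunized mouse 2, and the αβ T-like range in turn lay above that of γδ T-like cells. Other myeloid cells had 5.58, 1.27, 3.58 and 3.57 CPM in the same order, and B-like cells 8 UMIs in 288 cells.

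Gzmb, the granzyme that activates caspases, was at 512 and 297 CPM in NK-like cells of the unimmunized and 245 and 201 of the immunized mice (314 ± 138). αβ T-like cells had 22.8, 37.8, 91.0 and 66.6, and no UMI of Gzmb was found in 288 B-like cells, which allows up to 1.60 CPM. Prf1 was at 329, 155, 311 and 156 CPM in NK-like cells and at 27.5, 21.4, 70.8 and 85.8 in αβ T-like cells. No mouse's αβ T-like value reached the lowest NK-like value for either gene. Nkg7, needed for granule release, was at 1631, 1428, 1724 and 1421 CPM in NK-like cells against 330, 358, 465 and 839 in αβ T-like and 108, 304, 296 and 286 in γδ T-like cells.

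Among the receptors, Ncr1 was at 744, 569, 614 and 361 CPM in NK-like cells, again in the order unimmunized 1 and 2, immunized 1 and 2. Klre1 was at 525, 407, 595 and 321, and Klrb1c at 366, 317, 348 and 266. In other myeloid cells the 3 receptors stayed between 0.366 and 1.34 CPM in every mouse. Ifng was the least abundant of the tested genes in NK-like cells, with 26, 7, 16 and 2 UMIs, or 38.7, 45.2, 32.9 and 10.0 CPM. Its γδ T-like value of 73.9 in immunized mouse 1 came from 8 UMIs in 19 cells, and none of those UMIs stayed in γδ T-like cells under the CD3/Trac gates.

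**Figure D1:**
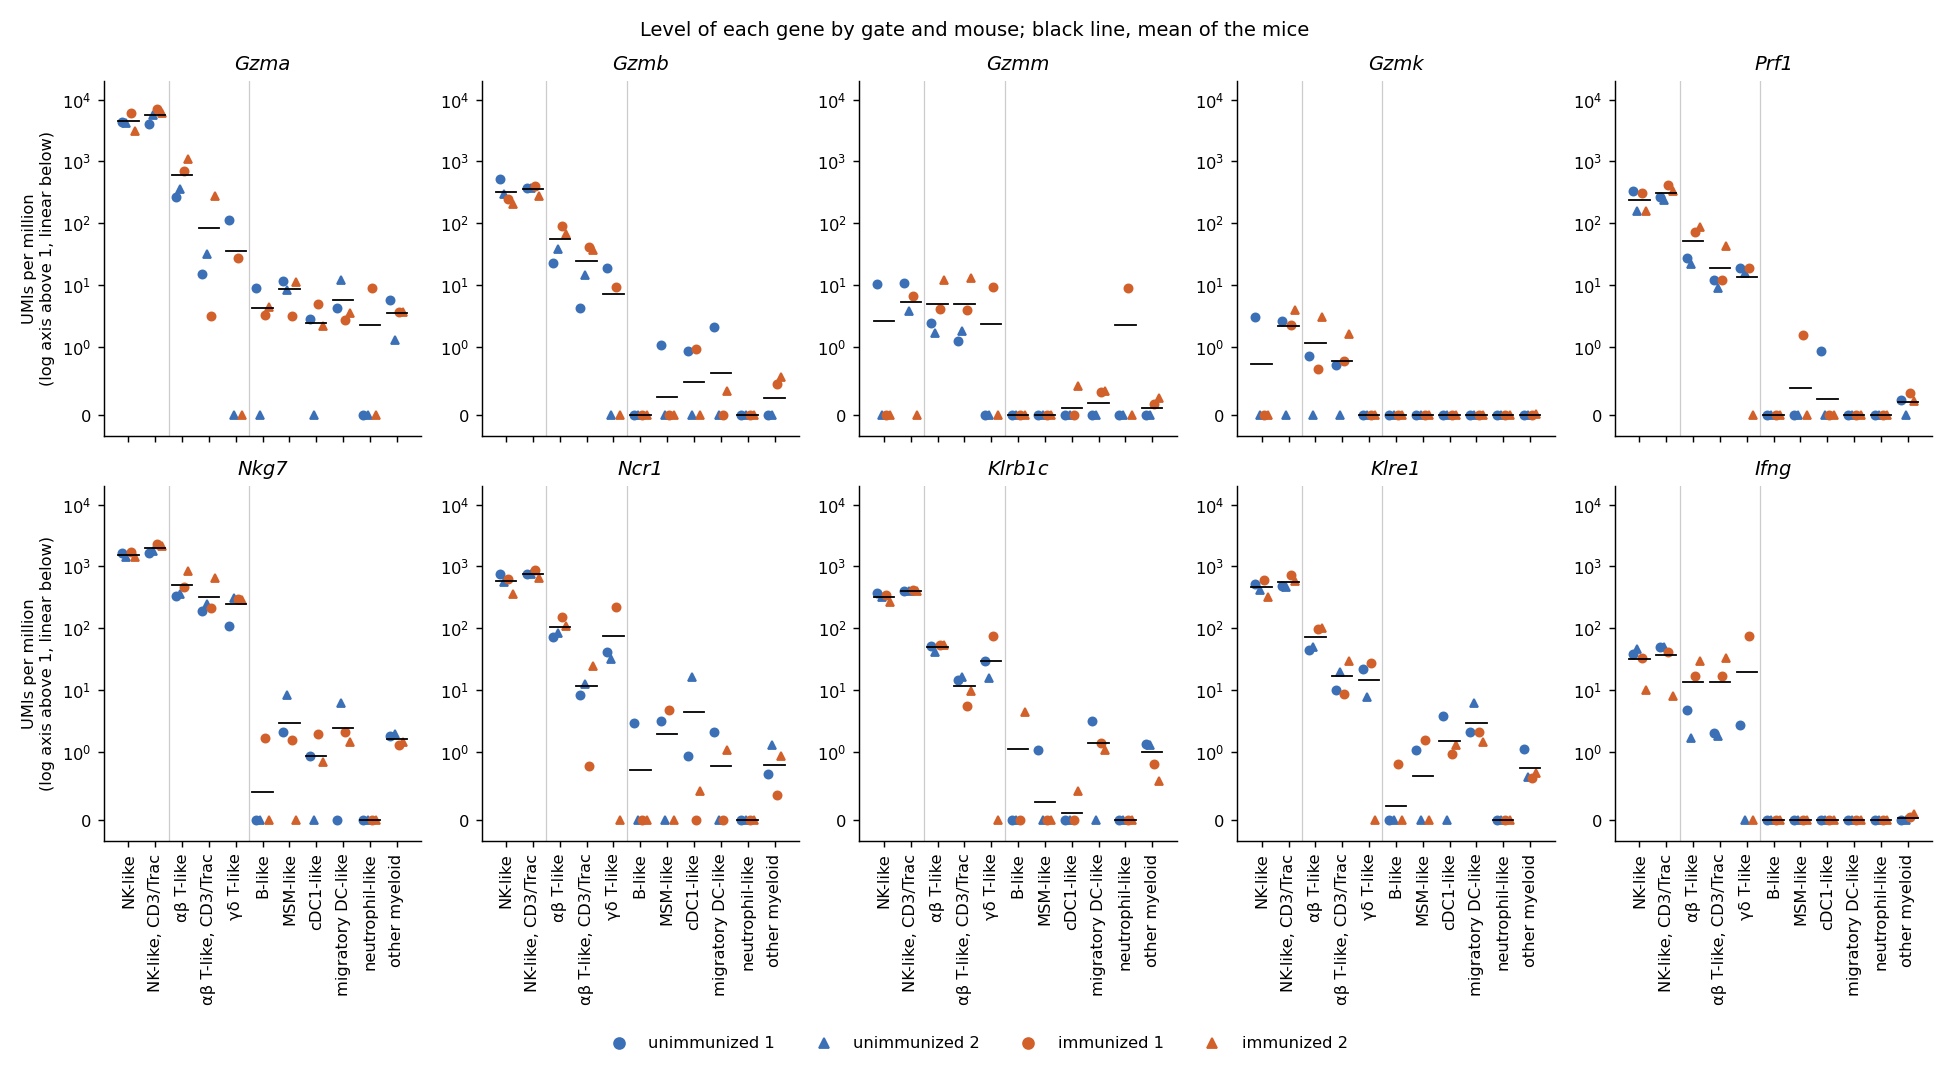
Level of each of the 10 genes in CPM (log axis above 1, linear below) by gate and mouse; points are mice, black lines the mean over mice, and CD3/Trac marks the second set of gates. The NK-like points of Gzma lie between 3057 and 6124, or 4015 and 7130 with the CD3/Trac gates, above every point of the other cell types plotted.

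Gzmm and Gzmk did not reach the number of counts needed for a test. Gzmm, a granzyme known from NK cells, gave 7 UMIs in NK-like cells, all from unimmunized mouse 1, and 26 in αβ T-like cells, with 2.36, 1.64, 4.04 and 11.8 CPM. Gzmk gave 2 UMIs in NK-like and 7 in αβ T-like cells. For both, the ranges of NK-like and αβ T-like cells met, so no order can be given between these gates at this depth.

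Compared with other myeloid cells, NK-like cells had higher levels of all 8 genes tested in edgeR's quasi-likelihood test, with p-values adjusted after Benjamini and Hochberg over 11252 genes. The 8 passed the filter on low counts through the libraries in which they are high, and 10.2% of all genes tested were called higher in this comparison, so the count is a description. The log2 fold changes ran from 8.08 ± 0.31 (SE) for Klrb1c to 10.68 ± 0.41 for Gzmb, with Gzma at 9.86 ± 0.40 and Prf1 at 9.71 ± 0.38, and the largest adjusted p was 2.21e-08 (Ifng). Under the CD3/Trac gates, where 15.5% of 11194 genes were called higher, the 8 ran from 8.45 to 10.95.

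NK-like cells exceeded αβ T-like cells in the same 8 genes, against 7.62% of all genes tested that were called higher. The NK gate itself asks for NK genes, and the 8 passed the filter through the libraries in which they are high. This count is therefore also a description. The log2 fold change was 3.09 ± 0.29 for Gzma (adjusted p = 4.05e-09), 2.81 ± 0.20 for Klre1, 2.72 ± 0.25 for Gzmb, 2.71 ± 0.23 for Klrb1c, 2.53 ± 0.28 for Ncr1, 2.49 ± 0.25 for Prf1, 1.72 ± 0.22 for Nkg7 and 1.73 ± 0.54 for Ifng (adjusted p = 0.0396, edgeR). The median of the 8 was 2.62, beside -0.02 over all genes tested. The Ifng call was lost in 9 of the other settings, with adjusted p from 0.0516 to 0.932, and without unimmunized mouse 1, unimmunized mouse 2 or immunized mouse 1 (2.44, 1.55 and 0.79 on the log2 scale). In another setting the T gate was loosened to 2 of the 10 genes and the NK gate narrowed to cells with no T gene. There the log2 differences of Gzma (0.97), Klre1 (0.88), Klrb1c (0.78), Ncr1 (0.77), Nkg7 (0.38) and Ifng (1.29) were not called.

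Under the CD3/Trac gates the gap widened, and the count of calls is again a description. Gzma was at 4015, 5541, 7130 and 5986 CPM in NK-like cells and at 14.7, 32.1, 3.14 and 277 in αβ T-like cells, a log2 fold change of 6.76 ± 0.59. Ncr1 differed by 6.35 ± 0.40, Klrb1c by 5.30 ± 0.24, Klre1 by 5.28 ± 0.25, Gzmb by 4.52 ± 0.28, Prf1 by 4.22 ± 0.28, Nkg7 by 2.70 ± 0.28 and Ifng by 2.45 ± 0.48 on the log2 scale, all called (edgeR, largest adjusted p = 0.00109, where 7.34% of genes were called higher). NK-like cells then held 78.2% of all Gzma UMIs, 75.4% of Ncr1, 70.5% of Gzmb, 68.8% of Prf1, 61.8% of Nkg7 and 50.6% of Ifng. With the 10-gene T gate they held 35.6% of the Gzma UMIs.

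Much of the αβ T-like signal of the 10-gene gate lay in a small group of cells. Among the 1116 αβ T-like cells of the 10-gene gate, 121 had at least 5 of the 12 NK genes. They held 98.7% of the gate's Gzma UMIs, 97.1% of Klre1, 90.9% of Ncr1, 79.5% of Klrb1c, 74.4% of Gzmb, 72.4% of Prf1 and 58.7% of Nkg7, but 30.9% of Ifng and 3.52% of Trac. Only 27.3% of them had a UMI of Trac. The 613 αβ T-like cells with 0 or 1 NK gene had 20 Gzma UMIs in all, and 165 of them (26.9%) carried Nkg7. A further 207 cells with at least 3 NK genes and exactly 2 T genes met none of the gates and held 7969 Gzma UMIs. Of 37 T-like cells that could not be called αβ or γδ, 1 cell of immunized mouse 2 had 150 of their 209 Gzma UMIs.

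**Figure D2:**
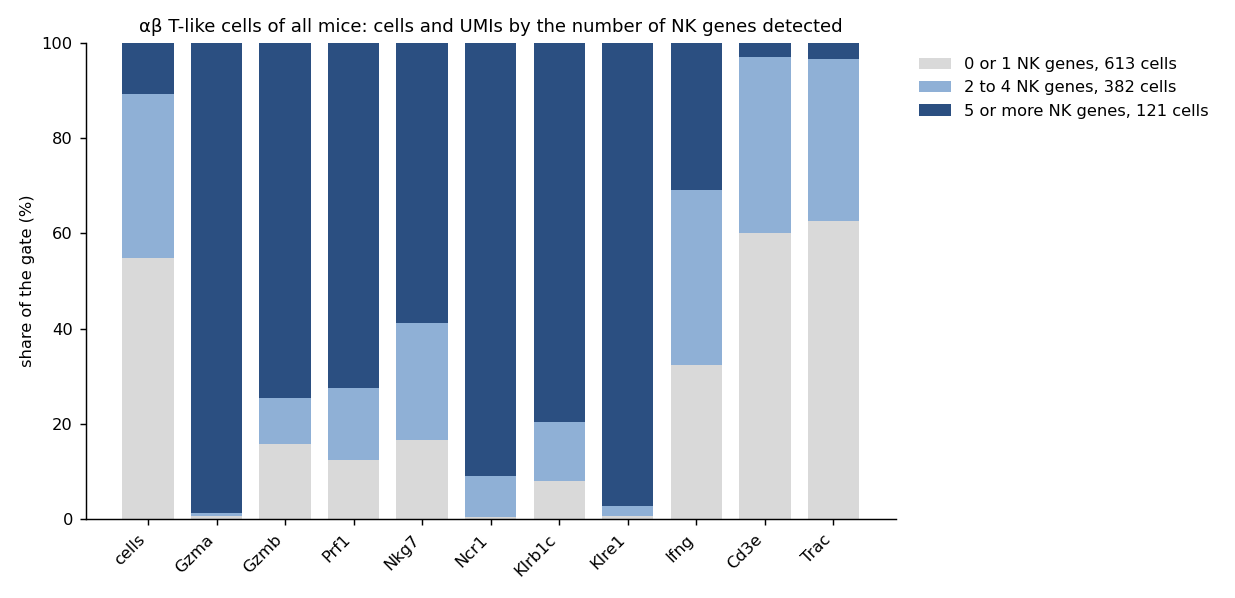
Share in percent of the cells, and of the UMIs of each gene, of the αβ T-like gate (10-gene T list, all mice) by the number of NK genes a cell had; Cd3e and Trac are shown for comparison. The 121 cells with 5 or more NK genes hold 98.7% of the Gzma UMIs but 3.52% of those of Trac.

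Between the T gates, Gzma (log2 fold change 3.88 ± 0.44, adjusted p = 2.83e-06), Klre1 (1.96 ± 0.37, adjusted p = 0.00593) and Nkg7 (1.26 ± 0.26, adjusted p = 0.0124) were higher in αβ than in γδ T-like cells by edgeR, 3 of 8 genes against 0.249% of all genes tested. None of the 8 was called under the CD3/Trac gates, where 0.322% of genes were called higher and Gzma differed by 0.68 ± 1.14. The γδ T-like libraries of the immunized mice had 19 and 7 cells, which limits this comparison.

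Among αβ T-like cells of the CD3/Trac gates, those with a UMI of Cd8a or Cd8b1 had more Nkg7 than those without in 4 of 4 mice (516 ± 242 against 244 ± 157 CPM) and more Prf1 in 4 of 4 (29.5 ± 23.6 against 13.9 ± 9.1). Klrb1c went the other way in 4 of 4 mice, on few UMIs, 2.58 ± 3.53 with CD8 genes and 14.5 ± 5.6 without. Gzmb did not separate with them, being higher without CD8 genes in 3 of 4 mice, and Ifng was higher with them in 3 of 4. Before the split, the gate held 58 Klrb1c UMIs in unimmunized mouse 1, 9 in unimmunized mouse 2, 7 in immunized mouse 1 and 6 in immunized mouse 2. Its Prf1 UMIs were 49, 5, 15 and 26 in the same mouse order. Counts this low leave the direction within single mice uncertain for Klrb1c and Prf1. The same holds for Ifng, with 8, 1, 21 and 20 UMIs before the split, and Gzmb, with 17, 8, 52 and 23. These splits were made after the values were known and were not tested.

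Within the NK-like gate the genes were detected in part of the cells. With each cell thinned to 1000 UMIs, Nkg7 was detected in 62.6% ± 5.7 of cells (SD, n = 4 mice), Gzma in 57.6% ± 9.0, Ncr1 in 53.0% ± 8.2, Klre1 in 40.0% ± 5.7, Klrb1c in 31.1% ± 6.3, Prf1 in 22.7% ± 6.7, Gzmb in 21.2% ± 7.1 and Ifng in 4.02% ± 3.85. Unthinned, at a median of 5564 UMIs, the shares were 73.7%, 59.1%, 73.8%, 61.3%, 66.7%, 49.8%, 41.0% and 14.6%. As the level in cells that should lack the genes, B-like cells (at least 2 of 5 B genes such as Cd79a; median 4277.5 UMIs) had Gzma in 0 of 288 cells after thinning, which allows a share of up to 1.04%, and in 1.96% unthinned. The 0 belongs to 1 random draw. Another draw at 1000 UMIs found Gzma in 1 of the 154 B-like cells of immunized mouse 1. Thinning moved Gzma least and Klrb1c most, so the order of the shares depends on depth.

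Gzma was either absent or abundant. Over the 228 NK-like cells, 87 had no Gzma UMI, the median of the others was 47 UMIs and the highest cell had 179. Gzmb was more uneven: 124 cells had none, the positive cells had a median of 3 UMIs, and the tenth of the cells with the most Gzmb held 57.0% of its UMIs, against 32.0% for Gzma. Detection overlapped between the genes. At 1000 UMIs, 91.2% of the 137 cells with Gzma also had Nkg7 against 20.9% of those without Gzma, and 50 of the 52 cells with Gzmb and 56 of the 57 with Prf1 had Gzma. Ncr1 was detected in 65.7% of cells with Gzma and 25.3% of those without. All cells of a mouse share a library, so these overlaps are a description.

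The receptor gene Il7r marked NK-like cells low in granule genes. Under the CD3/Trac gates, 188 of 465 NK-like cells had a UMI of Il7r, the interleukin 7 receptor chain found on innate lymphoid cells and some NK cells. Cells without it had Gzma at 7702, 9191, 9145 and 6365 CPM in unimmunized mice 1 and 2 and immunized mice 1 and 2. Cells with it had 898, 348, 2413 and 4325. The value without Il7r was the higher in every mouse, and the ranges did not meet. Gzmb (522 ± 193 without, 144 ± 111 with), Prf1 (435 ± 79 against 139 ± 116) and Klrb1c (482 ± 48 against 282 ± 16) were likewise higher without Il7r in 4 of 4 mice. Nkg7, Klre1 and Ncr1 were higher without it in 3 of 4, immunized mouse 2 with 7 Il7r cells being the exception, and Ifng in 2 of 4.

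Cells with Il7r instead had more Cxcr6, a homing receptor (225 ± 78 against 10.1 ± 6.6 CPM), and more Tcf7, a transcription factor of early lymphoid cells (183 ± 53 against 68.7 ± 27.1), each in 4 of 4 mice. Neither gene is particular to them. αβ T-like cells of the CD3/Trac gates had Cxcr6 at 396 ± 246 CPM with CD8 genes and 753 ± 187 without. Their Tcf7 was at 236 ± 50 and 228 ± 22. Whether the NK-like cells with Il7r include T cells with undetected CD3 genes and Trac was not tested. The transcription factor Zeb2 (159 ± 93 with, 324 ± 64 without) and the Ly49 receptor gene Klra8, a gene of the NK gate (34.4 ± 34.2 against 239 ± 88), were higher without Il7r in 4 of 4 mice. Median depth was alike in the groups, from 5159 to 6471 UMIs per cell. Il7r was chosen as a divider after the data were seen, and no test is given.

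**Figure D3:**
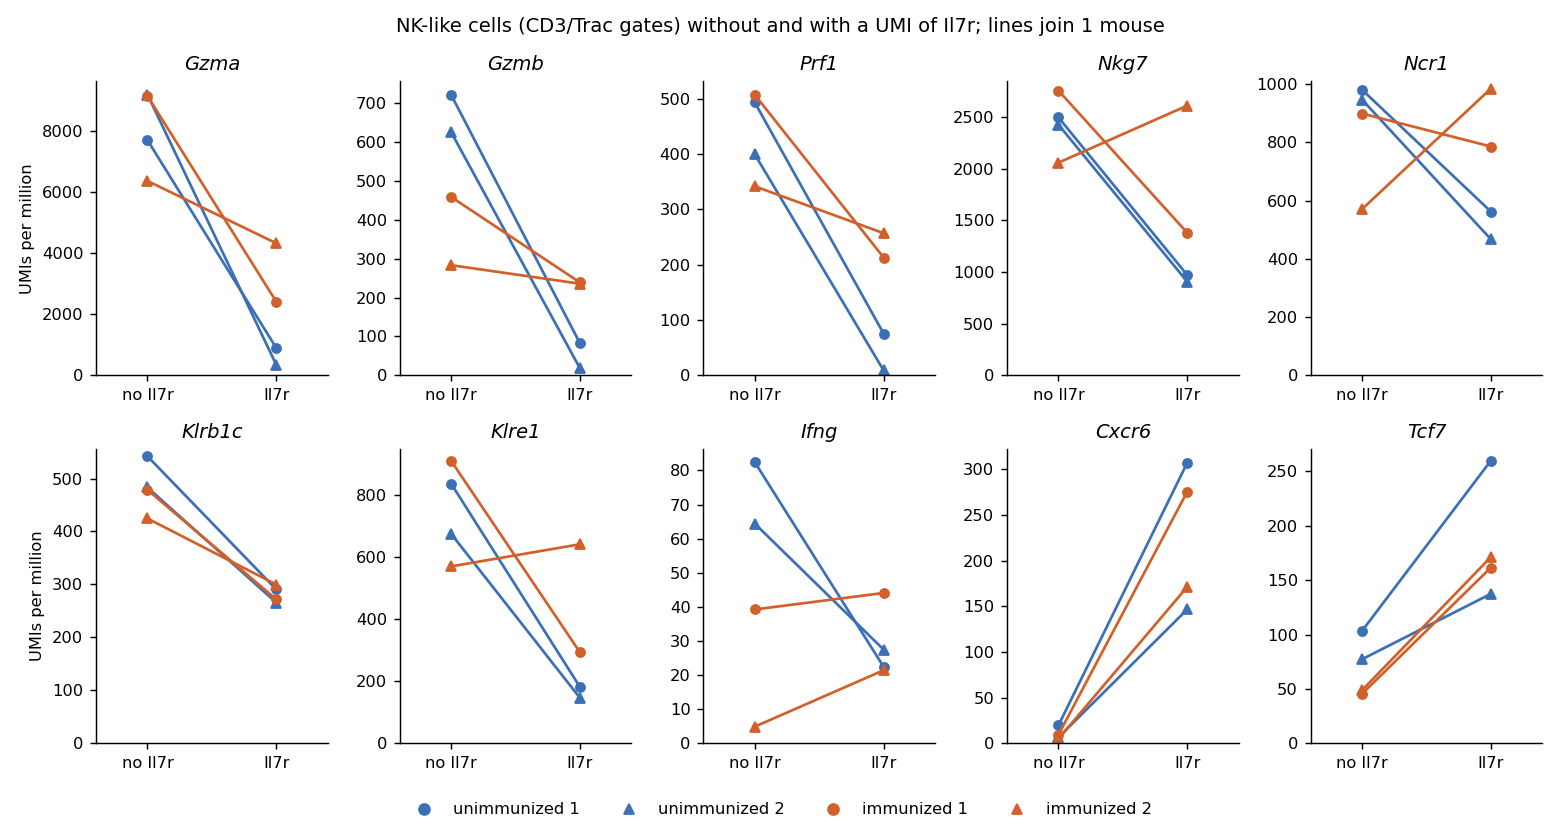
CPM of 8 of the genes and of Cxcr6 and Tcf7 in NK-like cells (CD3/Trac gates) without and with a UMI of Il7r; each line joins the values of 1 mouse. All 4 lines fall for Gzma, Gzmb, Prf1 and Klrb1c and rise for Cxcr6 and Tcf7.

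The sort yielded fewer NK-like cells from immunized mice as a share of all cells. They were 3.85% and 4.47% of the cells of unimmunized mice 1 and 2 and 1.80% and 0.466% of immunized mice 1 and 2, a difference of means of -3.03 points. The groups did not overlap, but 2 against 2 mice cannot give a two-sided exact permutation p below 0.333, which is the value found. αβ T-like cells went from 22.0% ± 4.5 to 3.59% ± 2.18 and γδ T-like cells from 5.08% ± 2.17 to 0.309% ± 0.227 (same p), while other myeloid cells were 19.6% and 34.5% of unimmunized and 57.3% and 72.3% of immunized samples. Shares of 1 sort are tied to each other, so fewer NK-like cells and more myeloid cells cannot be told apart here.

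The level of the genes per NK-like cell did not change detectably with immunization. Of the 8 genes none was called in NK-like cells, as was none of the 11252 genes tested (0%), while 607 had an unadjusted p under 0.05 by edgeR and DESeq2 called 0 with 299 under 0.05. The log2 fold changes, immunized over unimmunized, were 0.24 ± 0.38 for Gzma, 0.05 ± 0.34 for Prf1, 0.18 ± 0.30 for Nkg7, -0.28 ± 0.38 for Ncr1, -0.01 ± 0.31 for Klrb1c, 0.13 ± 0.27 for Klre1 and -0.63 ± 0.77 for Ifng. Gzmb was lower in both immunized mice (245 and 201 against 512 and 297 CPM), a log2 fold change of -0.75 ± 0.33 (edgeR adjusted p = 0.903). Under the CD3/Trac gates it was 375, 374, 393 and 274, a change of -0.03 ± 0.31. There Prf1 changed by 0.68 ± 0.32, Klre1 by 0.60 ± 0.27, Gzma by 0.57 ± 0.62 and Nkg7 by 0.49 ± 0.37. Klrb1c changed by 0.14 ± 0.25, Ncr1 by 0.13 ± 0.39 and Ifng by -0.67 ± 0.59, and none of these genes was called.

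In αβ T-like cells all 8 genes had higher values in both immunized than in both unimmunized mice under the 10-gene gate, Klrb1c by a narrow margin (53.9 and 53.2 against 50.5 and 41.1). The share of all genes that were higher in both immunized mice is not given here, so this count is a description. By the edgeR test, a different measure, 0.08% of all genes tested were called higher. Gzma went from 261 and 360 to 696 and 1087 CPM, Prf1 from 27.5 and 21.4 to 70.8 and 85.8, and Ifng from 4.73 and 1.64 to 16.9 and 29.6. None passed the test: the log2 fold change was 1.74 ± 0.37 for Prf1 (adjusted p = 0.0638), 1.68 ± 0.37 for Gzmb (0.0655), 1.69 ± 0.40 for Gzma (0.0891), 1.22 ± 0.29 for Klre1 (0.105) and 2.64 ± 0.75 for Ifng (0.353, edgeR). The median of the 8 was 1.45, beside -0.04 over all genes tested. Fitted with mouse as a replicate block (limma voom with an estimated correlation), Gzma, Gzmb, Prf1 and Klre1 were called, with Gzmb at 1.81 and an adjusted p of 0.0106. The share of all genes called in that fit is not given here, so these calls are a description. Neither the DESeq2 fit nor the HTODemux assignment called any gene in this comparison. Most of the gate's Gzma and Klre1 UMIs lay in the small group of cells with many NK genes described above.

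The CD3/Trac gates set no limit on the NK genes of a T-like cell. Their αβ T-like cells held 253 Gzma UMIs, against 3202 with the 10-gene gate. Under the CD3/Trac gates Gzmb and Ifng were called in αβ T-like cells, 2 of 8 genes where 0.152% of all genes were called higher. The unimmunized mice had Gzmb at 4.17 and 14.3 CPM, the immunized ones at 40.8 and 37.3, from 17, 8, 52 and 23 UMIs (log2 fold change 2.84 ± 0.47, edgeR adjusted p = 0.00406). Ifng was at 1.96, 1.78, 16.5 and 32.4, from 8, 1, 21 and 20 UMIs (log2 fold change 3.72 ± 0.75, edgeR adjusted p = 0.0472). The groups did not overlap for either gene. Few cells carried these counts. In immunized mouse 1, 29 of the 52 Gzmb UMIs and 15 of the 21 Ifng UMIs came from a single cell each, and in immunized mouse 2 a single cell gave 9 of 23 and 10 of 20. Counted as cells, Gzmb was detected in 1.58% and 2.15% of αβ T-like cells of unimmunized and in 7.34% and 5.68% of immunized mice, and Ifng in 0.946% and 1.08% against 2.82% and 6.82%.

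The Gzmb call was lost without unimmunized mouse 1 (log2 fold change 1.58, adjusted p = 1) and the Ifng call without unimmunized mouse 1 or 2 (3.84 and 3.70, edgeR adjusted p = 1 and 0.504), and DESeq2 called neither. Gzma did not follow. Its immunized values of 3.14 and 277 CPM lay on either side of the unimmunized 14.7 and 32.1, and 167 of the 171 Gzma UMIs of immunized mouse 2 were in 1 cell; without that mouse the change went from 2.93 to -2.46. Prf1, Nkg7, Klre1 and Ncr1 had log2 fold changes of 1.22, 1.15, 0.57 and 0.19, and Klrb1c went the other way (-0.93 ± 0.45), with adjusted p of at least 0.441 by edgeR.

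**Figure D4:**
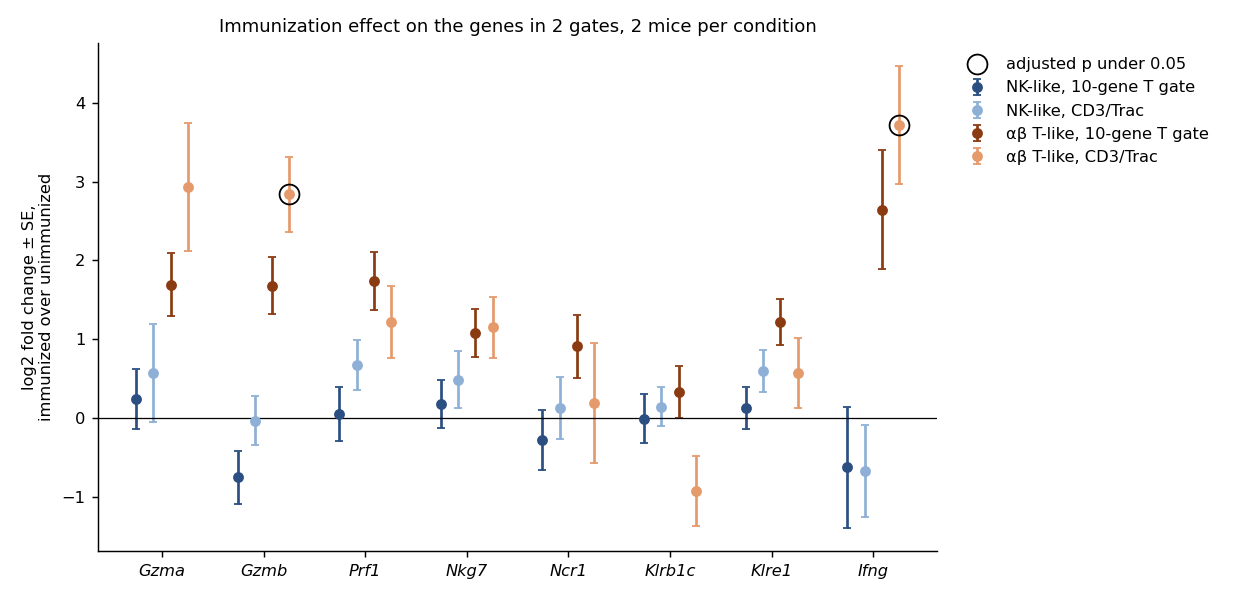
Log2 fold change of the 8 tested genes, immunized over unimmunized, with its SE (edgeR, 2 mice per condition) in NK-like and αβ T-like cells under both sets of gates; black rings mark an adjusted p under 0.05. The rings are on Gzmb (2.84) and Ifng (3.72) in αβ T-like cells of the CD3/Trac gates.

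In γδ T-like cells Gzma was at 112 and 0 CPM without immunization (187 and 19 cells) and at 27.7 and 0 CPM with it (19 and 7 cells). In γδ T-like and other myeloid cells none of the 8 genes was called with immunization, against 0% and 0.791% of all genes tested (in γδ T-like cells 677 genes had an unadjusted p under 0.05, and DESeq2 called 0). Other myeloid cells had 0, 0, 11 and 25 UMIs of Gzmb, up to 0.555 CPM, with a log2 fold change of 3.77 ± 1.65 (edgeR adjusted p = 0.448). The counts of 0 in the smaller unimmunized libraries allow up to 0.669 and 1.91 CPM, above both immunized values, so no rise can be read from them. The immunization effect was also compared between NK-like and other myeloid cells, where no gene was called (0%, 452 with an unadjusted p under 0.05 and 0 by DESeq2), and between NK-like and αβ T-like cells, a comparison added after the data were seen, where again none was (0%, 401 under 0.05 and 0 by DESeq2).

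Other genes of the killing machinery were read from 8 lists of 67 genes, of which 59 could be tested. The lists were chosen with earlier results known and the NK gate itself asks for NK genes. The counts between gates, here and against αβ T-like cells below, are therefore a description. Against other myeloid cells 36 were higher in NK-like cells and 10 lower, where 10.2% and 13.7% of all genes were called in these directions. With the CD3/Trac gates 40 were higher, where 15.5% of all genes were called higher. There 12 were lower, for which the share over all genes is not given here. Higher were the death ligand gene Fasl (log2 fold change 7.96 ± 0.55), the release factor Sytl2 (8.26 ± 0.49), the further granzyme Gzmc (8.06 ± 0.99), the granzyme inhibitor Serpinb6b (6.80 ± 0.39), the protease Ctsw (7.61 ± 0.31), the receptors Klrg1 (9.11 ± 0.74) and Klra1 (8.91 ± 0.72), the transcription factor Tbx21 (T-bet, 7.51 ± 0.47) and the cytokine receptor Il18r1 (6.70 ± 0.32). Ctsc, whose protein activates progranzymes and is also a lysosomal enzyme of macrophages, was lower (-2.25 ± 0.46). Gzmc lies in a cluster of close paralogs with Gzmb, so that reads of these genes may not be fully separated.

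Against αβ T-like cells 33 of the 59 were higher in NK-like cells and 5 lower, where 7.62% and 4.19% of all genes were called. Of the 2 genes with the largest change in each list, those higher in NK-like cells included S1pr5, an exit receptor of mature NK cells (3.40 ± 0.62), the protease Ctsh (2.88 ± 0.31), Slamf7 (2.71 ± 0.25), Il12rb2 (2.69 ± 0.54), Klrg1 (2.65 ± 0.55), the chemokine Ccl5 (2.53 ± 0.54), the inhibitors Serpinb9 (2.41 ± 0.28) and Serpinb6b (2.38 ± 0.32) and Fasl (2.28 ± 0.42). Csf2 (-4.42 ± 1.41, from 4 UMIs in NK-like cells) and Lta (-2.91 ± 0.56, from 7) were lower with the 10-gene gate, and neither was called lower under the CD3/Trac gates. There 35 of the 59 were higher, where 7.34% of all genes were called higher, and 2 lower, without a share over all genes given here. The genes named by the same rule under these gates included Serpinb9b (8.24 ± 1.39), Klrb1a (7.73 ± 0.66), S1pr5 (6.46 ± 0.78), Gzmc (6.25 ± 0.86) and Klra5 (6.15 ± 1.37), of which Gzmc was not called with the 10-gene gate (0.93). In the granule release list 3 of 6 were higher, Lyst (1.24 ± 0.32) and Sytl2 (1.15 ± 0.34) among them, and 2 of 6 under the CD3/Trac gates. With immunization none of the 59 was called in NK-like or αβ T-like cells with the 10-gene gate. The chemokine gene Ccl4 was called in αβ T-like cells of the CD3/Trac gates (6.77 ± 1.27), where 0.152% of all genes were called higher. Its UMIs per mouse, the cells that carried them and fits leaving out a mouse are not given here, so this call is a description. With the 10-gene gate, median log2 differences of NK-like against αβ T-like cells were 2.26 in the 19 tested receptors and adaptors, 2.13 in the 4 granzyme inhibitors, 1.31 in the 16 transcription factors and cytokine receptors and 0.81 in the 6 release genes, beside -0.02 over all genes. In the 4 death ligand genes the median was below 0 with the 10-gene gate and 0.46 under the CD3/Trac gates. In other myeloid cells 3 of the 59 were called, beside 0.791% of all genes tested. Il15ra was higher (1.51 ± 0.34), at 12.9 and 12.7 CPM without and 24.5 and 44.6 CPM with immunization. Klrb1a was lower (-3.85 ± 0.90) on 7, 2, 2 and 2 UMIs. Cd7 was lower (-2.20 ± 0.52), but its groups overlapped, since unimmunized mouse 2, on 11 UMIs, lay below immunized mouse 1.

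**Figure D5:**
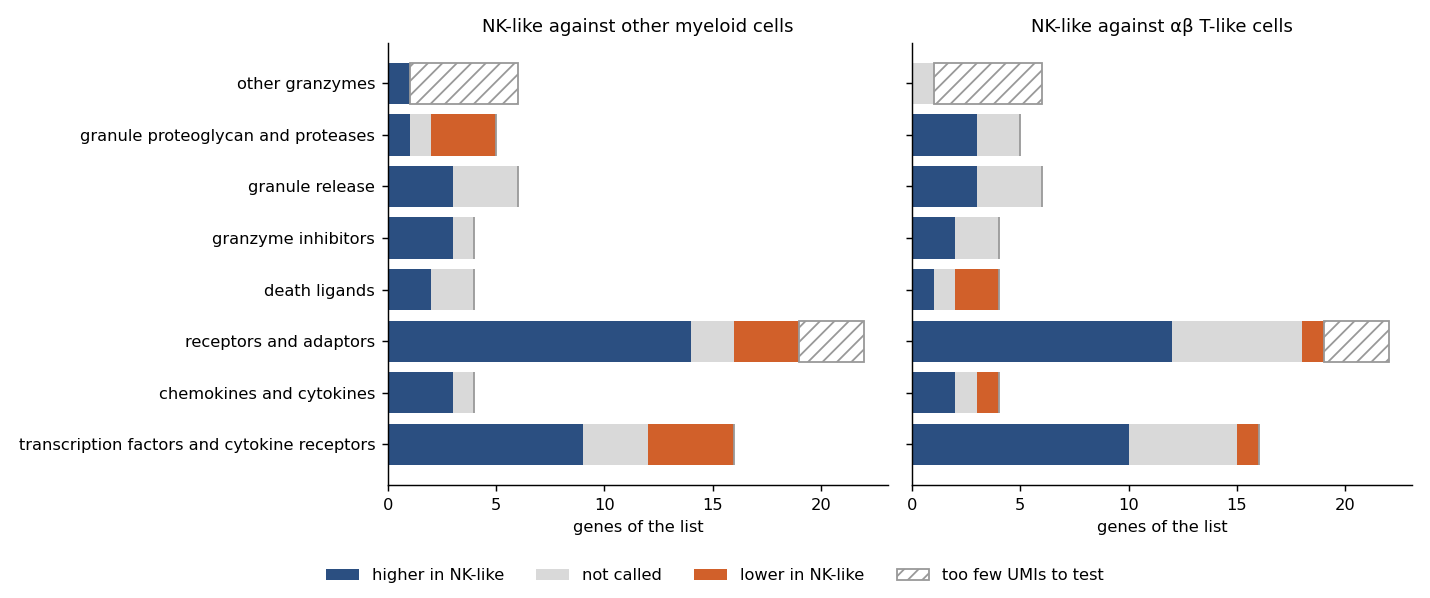
Number of genes of each list called higher, lower or not called (edgeR, adjusted p under 0.05), or with too few UMIs to test, in NK-like cells against other myeloid cells (left) and αβ T-like cells (right), with the 10-gene T gate. Of the 22 receptor and adaptor genes, 14 are higher on the left and 12 on the right.

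Across the 35 libraries of mice and gates, the gene most like Gzma, Gzmb, Ncr1 and Klre1 was in each case another member, but no pair was mutual. By Pearson's r of log2 CPM, Gzma was most like Gzmb (r = 0.948), Gzmb most like Klre1 (0.957), and Ncr1 (0.951) and Klre1 (0.963) most like Prf1. Prf1 was closest to the integrin gene Itga2 (0.977), Klrb1c to Spry2 (0.970) and Nkg7 to Sh2d1a (0.961). The libraries share gates, mice and the contrast of lymphoid with myeloid cells, so these values are a description. Klrc1 and the gate gene Klra7 were next for both Gzma (0.933 and 0.930) and Gzmb (0.956 and 0.950).

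The antibody counts gave the surface side of the same cells. As a mean centred log ratio, NK-like cells had a CD169 signal of 0.885 ± 0.430 (SD, n = 4 mice) against -0.333 ± 0.363 in other myeloid and 0.884 ± 0.567 in αβ T-like cells, although Siglec1 was at 5.29 CPM in NK-like cells and at 24.5 in other myeloid cells. The CD169 signal was 1.28 ± 0.26 in γδ T-like cells and only 0.481 ± 0.350 in the medullary sinus macrophage (MSM-like) gate. By mouse, NK-like cells had 1.38 and 1.05 without and 0.733 and 0.377 with immunization. The F4/80 signal was -1.02 ± 0.07 in NK-like and -0.397 ± 0.190 in other myeloid cells, and Ly-6c was 1.58 ± 0.28 against 2.73 ± 0.31. What carries the CD169 signal on these lymphocytes was not tested. None of the antibodies was against a protein of the 10 genes.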

How the data were processed

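Gene UMI counts, hashtag counts and counts of 6 antibodies came from CD11b+TOM+ lymph node cells of 4 mice, 2 per condition. The authors aligned reads to mm10 with Cell Ranger 4.0.0, joined 2 captures with its aggregation step and counted hashtags and antibodies with CITE-seq-Count; the deposited counts are not normalized. The sources used here do not give whether aggregation equalized depth.

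Of 18662 barcodes, 1242 whose sequence (621 in all) occurred in both captures were left out, because hashtag counts could not be given to 1 of them. Cells with at most 25% mitochondrial UMIs whose highest hashtag had at least 10 counts and 80% of hashtag counts were kept (12139). Doublets between mice were removed by the hashtag rule and those within a mouse were not. The gates used detected genes only. The members and lists were chosen with earlier results of these data known, and the CD3/Trac gates, the Il7r and CD8 splits and the comparison of the immunization effect between NK-like and αβ T-like cells were added after the data were seen.

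Counts were summed over mouse and gate where there were at least 5 cells, giving 35 libraries of 45527 to 45060500 UMIs, and fitted in 1 model with edgeR 4.0.16 (TMM, filterByExpr, quasi-likelihood test, R 4.3.3). An adjusted p under 0.05 was called, and SEs were derived from the F statistic. DESeq2 1.42.0, limma 3.58.1 and HTODemux of Seurat 5.3.0 served for other settings. Shares were compared by a two-sided exact permutation test over mice. Intervals and limits for 0 (3 counts) cover counting error only. Each mouse is 1 animal, so the libraries of a mouse are paired between gates; over 128 pairs of such libraries the correlation of deviations ran from -0.024 to 0.453 (median 0.0361). The edgeR test was also run on counts simulated with the library sizes and dispersion of these data. Named genes were the 10 members, per wider list and comparison the 2 genes of largest change past the threshold, and the 3 genes most correlated with each member of at least 200 UMIs; Cxcr6, Tcf7, Zeb2 and Klra8 were named after their values were seen.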

Additional observations from a re-analysis of the deposited data

Results flagged for a closer look

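With the 10-gene T gate, Gzmb and Ifng were lower in both immunized than in both unimmunized mice in NK-like cells. In αβ T-like cells the 2 genes were higher in both immunized mice. Other myeloid cells of the unimmunized mice had 0 UMIs of either gene, which allows up to 0.669 and 1.91 CPM. The immunized values, 0.447 and 0.555 CPM for Gzmb and 0.0406 and 0.0888 for Ifng, lay below these limits, so no rise is shown there. Between NK-like and αβ T-like cells the log2 fold changes of Gzmb differed by -2.43 ± 0.49 (edgeR, adjusted p = 0.23) with the 10-gene T gate, and by -2.87 ± 0.57 (adjusted p = 0.131, edgeR) under the CD3/Trac gates, where NK-like Gzmb changed by -0.03 ± 0.31 and immunized mouse 1 lay above both unimmunized mice. With mouse as a replicate block and the 10-gene gate the difference was -2.49 with an adjusted p of 0.0349, and over the settings the adjusted p ran from 0.00051 to 1. Ifng differed by -3.27 ± 1.07 (adjusted p = 1), and by -4.39 ± 0.95 (adjusted p = 0.276, edgeR) under the CD3/Trac gates. Its NK-like value of immunized mouse 2 rested on 2 UMIs under either set of gates.

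Between NK-like and other myeloid cells, Gzmb differed by -4.52 ± 1.63, and Ifng by -2.07 ± 2.13 or by -2.12 ± 2.01 under the CD3/Trac gates, each with an edgeR adjusted p of 1. Nkg7 differed by 0.81 ± 0.82 under the CD3/Trac gates (edgeR adjusted p = 1). In other myeloid cells of the unimmunized mice Gzmb and Ifng had 0 UMIs, so the fitted sizes depend on the prior count.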

How the results depend on the processing

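Of 669 recomputed log2 fold changes of the genes, 580 kept direction and side of the threshold, 48 lost the call, 34 gained one and 7 turned. The change of Gzma with immunization in NK-like cells (0.24) was -0.057 under HTODemux, -0.32 with 2 NK genes, -0.27 with 2 T genes, -0.14 with mixed cells kept and -0.44 to 0.62 leaving out 1 mouse (lowest without immunized mouse 1). The setting with 2 T genes also asked for no T gene in NK-like cells. Under the CD3/Trac gates, leaving out 1 mouse gave -2.46 to 4.01 for Gzma in αβ T-like cells and -0.45 to 0.20 for Gzmb in NK-like cells; the turned values were those without immunized mouse 2. The direction of the differences in gate shares was the same in all 48 recomputed values. The cause was not tested for any of these.

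Genes called between NK-like and other myeloid cells (2698) were 1138 with 2 T genes and 1210 to 2620 leaving out 1 mouse. Between NK-like and αβ T-like cells (1328) they were 690 with 2 T genes, 741 with 4 and 2406 with 2 NK genes, 660 with mixed cells from 2 myeloid genes, 539 in capture 2 and 604 to 1181 leaving out 1 mouse. Between αβ and γδ T-like cells (40) they were 24 and 11 in captures 1 and 2, 124 with only the gates compared, 108 with no filter, 67 and 72 with mouse as a replicate block (voom and edgeR), 26 with mixed cells kept or taken from 2 myeloid genes, and 14 to 71 leaving out 1 mouse.

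With immunization, NK-like cells (0 called) had 3 with 2 T genes, 50 with no filter, 18 with 2 NK genes, 12 with mixed cells from 2 myeloid genes, 3 in capture 2 and 0 to 28 leaving out 1 mouse. γδ T-like cells (0) had 5 with no filter and 0 to 3 leaving out 1 mouse. αβ T-like cells (10) had 18 with 4 and 3 with 2 T genes, 306 with only the gates compared, 87 with no filter, 16 with 4 NK genes, 29 with the replicate block (voom), 1 with mixed cells kept, 17 with mixed cells from 2 myeloid genes, 0 under HTODemux, 21 under CD3/Trac, 0 by DESeq2 and 0 to 73 leaving out 1 mouse. Other myeloid cells (89) had 0 with only the gates compared, 553 with no filter, 642 with the replicate block (voom), 18 with mixed cells kept, 26 under HTODemux, 6 by DESeq2, 22 in capture 2 and 0 to 885 leaving out 1 mouse. The difference of the effect between NK-like and other myeloid cells (0) gave 42 with no filter, 2 with 2 NK genes, 1 with the replicate block (edgeR), 4 with mixed cells from 2 myeloid genes and 0 to 41 leaving out 1 mouse. With the DESeq2 scaling the median log2 difference of all genes between NK-like and other myeloid cells moved from -0.10 to 0.47.

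Shares of NK-like cells with a UMI at 2000 UMIs, and then unthinned, were 30.9% and 41.0% for Gzmb, 7.95% and 14.6% for Ifng, 45.9% and 66.7% for Klrb1c, 56.3% and 61.3% for Klre1, 68.8% and 73.7% for Nkg7 and 36.7% and 49.8% for Prf1, and unthinned 73.8% for Ncr1. Groups of 2 mice, libraries of as few as 7 cells and UMI counts as low as 1 limit the immunization comparisons.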
